A study of Arabidopsis thaliana with 6 samples.

Results

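The genes described here are 6 nuclear genes of the *Arabidopsis* chloroplast: *PSAE1* (AT4G28750) and *PSAN* (AT5G64040) of photosystem I, *PSBW* (AT2G30570), *PSBY* (AT1G67740) and *PSB27* (AT1G03600) of photosystem II, and *ATPC1* (AT4G04640) of the chloroplast ATP synthase. They were chosen by locus, as nuclear genes of these 3 complexes to which the probe table used here assigns a probe set of the ATH1 array, that is, several short probes to 1 transcript, for that gene alone. They are 6 of the 13356 genes with such a probe set, and each of them has 1. Of the 22746 probe sets tested, 8730 are not listed in that table, so a gene with no named probe set here may still be on the array. Beside them stand the 26 plastid-encoded genes of the same complexes, all 26 of which were measured. The transcripts were those of whole seedlings, with root, hypocotyl and cotyledons together. Wild-type Col-0 was compared with *rcb-10* in the same Col-0 background, a null allele with a T-DNA in an intron of *RCB* that makes seedlings tall and albino. Seeds of both genotypes, on medium without sucrose, were kept 4 days in the cold and dark, and the plants were harvested after 4 days under constant R light of 10 μmol per square metre per second. Each genotype had 3 arrays from biological replicates, 6 arrays in all. A single mutant allele was measured, and the table names no probe set for *RCB* alone, so the mutation could not be checked in these data.

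Photosystem I and photosystem II are the light-driven pigment-protein complexes of the thylakoid membrane, and the ATP synthase uses the proton gradient that electron transport builds across that membrane. Each is a mosaic: the reaction centre proteins and a set of small membrane subunits are encoded in the plastid genome, whereas many peripheral subunits and nearly all assembly factors are encoded in the nucleus, translated in the cytosol and imported. In the nucleus, genes of this kind are known to be induced by light through phytochromes and to respond to signals from the plastid. In the plastid, photosynthesis genes are mostly read by the plastid-encoded RNA polymerase, and housekeeping genes by a nuclear-encoded one. The comparison shows whether transcripts for the nuclear subunits differed in seedlings without RCB, and whether they differed as those of their plastid partners did.

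Signals are in arbitrary linear units, scaled by the authors to 1 trimmed mean on all arrays. Pearson correlations of log2 signals lay between 0.945 and 0.953 for arrays of the same genotype and between 0.919 and 0.928 for arrays of different genotypes. The brightest of the unspiked trp controls gave 43.8, which was used as the background, and 19.5% to 21.7% of probe sets lay below it on each array. All 6 nuclear genes lay far above it on all 6 arrays, between 7901 and 19935. The ratio of 3′ to 5′ signal of the actin control was 3.36 to 3.90 in Col-0 and 3.37 to 3.63 in *rcb-10*, so the genotypes overlapped. The 25S rRNA control was 9496 to 11334 in Col-0 and 14157 to 14586 in *rcb-10*, with no overlap, and its part in the results was not tested.

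None of the 6 nuclear genes differed between Col-0 and *rcb-10* at an adjusted p under 0.05 in limma, a linear model with variances shared across probe sets, adjusted after Benjamini and Hochberg over all 22746 probe sets. In the same test 16.9% of all probe sets passed, 10.2% lower and 6.76% higher in *rcb-10*. The median log2 change of the 6 genes was 0.02, beside −0.04 for all probe sets. At an unadjusted p under 0.05, 1 of the 6 passed, *PSB27*, and it was also the 1 gene of 6 whose arrays did not overlap between genotypes, as those of 40.6% of all probe sets did not. Of the 26 plastid-encoded genes of the 3 complexes, by contrast, 11 fell in *rcb-10*. All 11 belong to photosystem I or II, and none of the 6 of the ATP synthase passed.

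**Figure D1:**
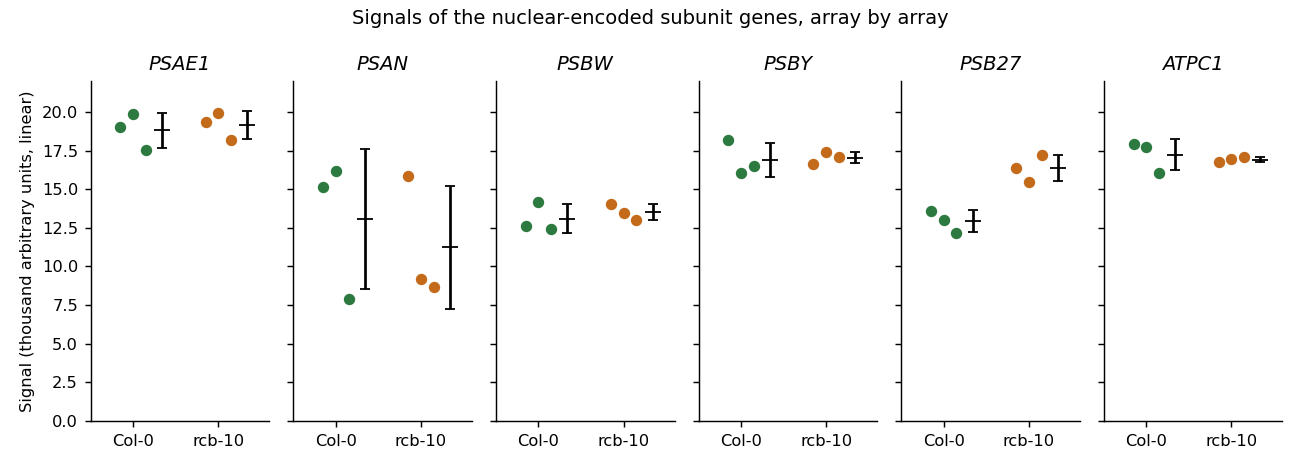
Signal of each of the 6 nuclear genes in arbitrary units (linear axis from 0, with the scale factor in the axis label). Points are single arrays, 3 for Col-0 and 3 for *rcb-10*, and the bars give the mean and SD of the 3. The arrays of the genotypes overlap for 5 genes and do not overlap for *PSB27*, and *PSAN* is the gene with the widest spread within a genotype.

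*PSAE1* encodes PsaE, a stromal subunit of photosystem I that helps ferredoxin to dock. Its signal was 19014, 19837 and 17549 on the Col-0 arrays 1, 2 and 3, and 19339.6, 19935 and 18196 on the *rcb-10* arrays. The lowest and the highest array of each genotype stood near those of the other, and the ranges overlapped. The means were 18799.9 ± 1159 in Col-0 and 19157 ± 884 in *rcb-10* (SD, n = 3 each). The log2 change was 0.03 with a standard error of 0.11 (limma, adjusted p = 0.889), and its 95% confidence interval of −0.25 to 0.30 corresponds to folds from 0.841 to 1.24. The table assigns no probe set to *PSAE2* alone, the second gene for PsaE, and whether its transcripts contribute to this signal was not tested.

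*PSAN* encodes a subunit of photosystem I on the lumenal side, where plastocyanin delivers electrons. Its signal was 15123, 16179 and 7901 in Col-0 and 15835, 9180.4 and 8700.0 in *rcb-10*. Each genotype thus had arrays near the upper level (Col-0 1 and 2, *rcb-10* 1) and arrays near the lower one (Col-0 3, *rcb-10* 2 and 3). The highest array was 2.05 times the lowest in Col-0 and 1.82 times in *rcb-10*, and the coefficients of variation were 34.5% and 35.5%, where the highest in any of the other 5 genes was 7.33%. The means were 13067 ± 4506 and 11239 ± 3988. The log2 change of −0.20 had a standard error of 0.37 (limma, adjusted p = 0.751), and its 95% interval of −1.13 to 0.72 spans folds from 0.456 to 1.65. For *PSAN* the arrays therefore do not tell a fall of more than 2-fold from a rise of 1.65-fold. Leaving out each array in turn moved its log2 change between −0.53 and −0.02.

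*PSBW* encodes a small membrane-spanning subunit of photosystem II known to stabilise its association with the light-harvesting antenna. Its signal was 12639.8, 14199 and 12447 in Col-0 and 14062, 13459.9 and 13025 in *rcb-10*. The Col-0 array 2 was the highest of all 6 and the other Col-0 arrays the lowest, so the *rcb-10* arrays lay inside the Col-0 range. The means were 13095 ± 960.4 and 13516 ± 521, a log2 change of 0.05 with a standard error of 0.11 (95% interval −0.23 to 0.33, limma, adjusted p = 0.813).

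*PSBY* encodes a precursor that is processed into small membrane proteins of photosystem II. Its signal was 18161, 16031 and 16518 in Col-0 and 16642, 17382 and 17083 in *rcb-10*. Here too the 3 *rcb-10* arrays lay between the lowest and the highest Col-0 array. The log2 change was 0.01 with a standard error of 0.11 (95% interval −0.26 to 0.28, limma, adjusted p = 0.946), from means of 16903 ± 1116 and 17036 ± 372.

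*PSB27* encodes a lumenal protein that binds photosystem II during its assembly and repair and is not part of the mature complex. Its signal was 13561, 13033 and 12155 in Col-0 and 16371, 15491.5 and 17215 in *rcb-10*. Every *rcb-10* array was above every Col-0 array. The means were 12916 ± 710.3 and 16359 ± 862, a log2 change of 0.34 with a standard error of 0.11 (95% interval 0.07 to 0.62), or 1.27-fold. The unadjusted p was 0.0237 and the adjusted p 0.0930 in limma, so *PSB27* was not called. It was called, as higher, under 4 of the other settings: adjusted p = 0.0331 with each array centred on its median, 0.0247 with signals under background raised to it, 0.0158 where limma estimated variances robustly and with a trend in signal, and 0.0460 by the methods' t-test on every probe set. The methods also ask for a change of at least 2-fold, which was not applied here and which *PSB27* did not reach. With quantile normalization its log2 change was 0.11 (limma, adjusted p = 0.537), and in the 6 fits that each left out 1 array the adjusted p lay between 0.141 and 0.238.

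*ATPC1* encodes the γ subunit of the chloroplast ATP synthase, the rotating shaft through which the enzyme is switched by thioredoxin. Its signal was 17897, 17722 and 16068 in Col-0 and 16743, 16924 and 17058 in *rcb-10*. The *rcb-10* arrays stood closer together than in any other of the 6 genes, with an SD of 158 about a mean of 16908, and all 3 lay inside the Col-0 range (17229 ± 1009). The log2 change was −0.03 with a standard error of 0.11 (95% interval −0.29 to 0.24, limma, adjusted p = 0.895). *ATPC2*, the second gene for this subunit, had 257 to 334 units over the 6 arrays and a log2 change of −0.07 (adjusted p = 0.770).

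Put together, the intervals of *PSAE1*, *PSBW*, *PSBY* and *ATPC1* leave folds between 0.818 and 1.26. These limits hold for the scaling of the deposited signals. Quantile normalization shifted the 4 log2 changes to values between −0.22 and −0.15, and centring each array on its median shifted them to between 0.14 and 0.22, so the sign of each of these small changes depended on the scaling. Centring moved the median of all probe sets from −0.04 to 0.13, and turned the split of calls from 2315 lower and 1538 higher to 1493 lower and 2553 higher. In bulk seedlings, fewer cells of a type and less RNA per cell cannot be told apart.

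The plastid-encoded partners measured on the same arrays were lower in *rcb-10* in 11 cases, higher in none, and did not pass in 15. Their median log2 change was −0.29, beside 0.02 for the nuclear genes. Their 11 calls became 6 when *rcb-10* array 3 was left out, 7 when *rcb-10* array 2 or Col-0 array 1 was, and 8 or 9 when any other was. All 26 were above background on every array. Whether any of them share a transcript was not tested, so these counts are of genes and not of independent cases. The labelling kit primes at poly(A) tails, which plastid transcripts mostly lack. The level of a plastid signal is therefore not that of a nuclear one, and only changes between genotypes are set side by side. Such a change is that of the labelled part of a plastid RNA, and whether it follows the whole was not tested.

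**Figure D2:**
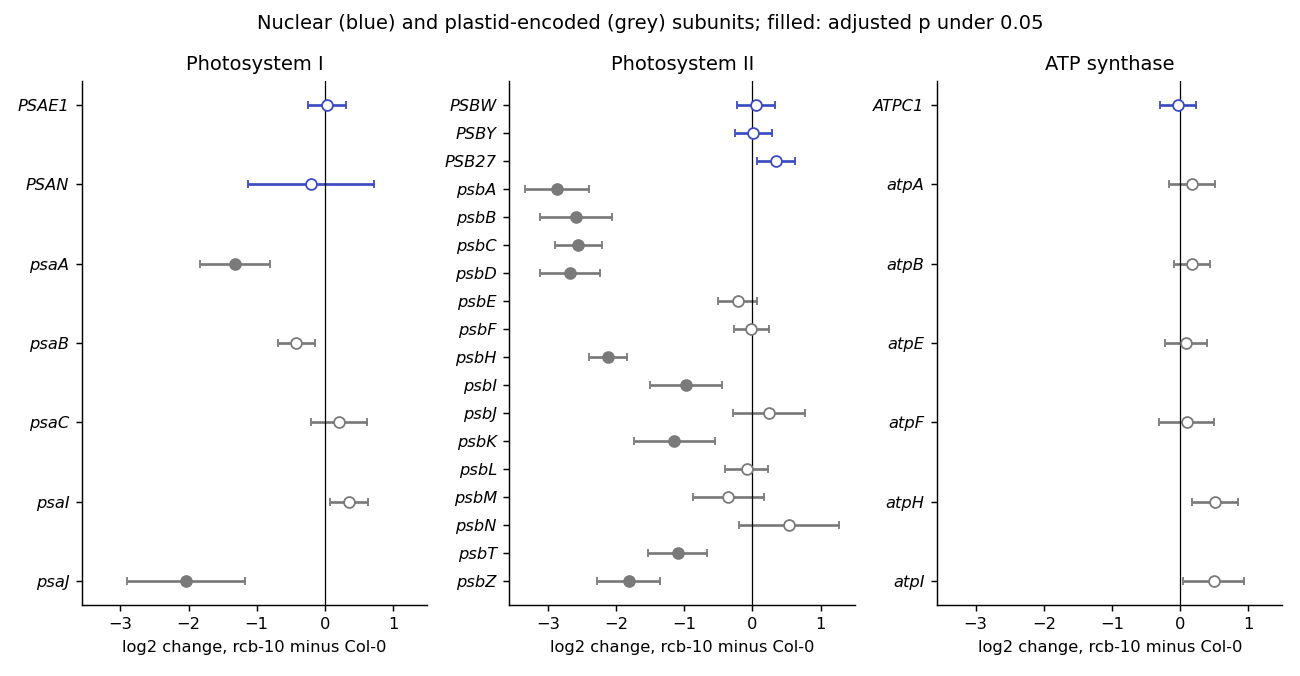
Log2 change of each gene (*rcb-10* minus Col-0, limma, with its 95% confidence interval) for the 3 complexes, with nuclear genes in blue, plastid-encoded genes in grey, and filled symbols for an adjusted p under 0.05. The filled symbols are 2 plastid genes of photosystem I and 9 of photosystem II, all below 0; no nuclear gene and no ATP synthase gene has one.

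In photosystem I, 2 of the 5 plastid genes fell. *psaJ*, for a small membrane subunit, went from 6929, 6141 and 3225 in Col-0 to 1652, 1011 and 1184 in *rcb-10* (log2 change −2.04, SE 0.35, adjusted p = 0.0191). *psaA*, for one of the paired reaction centre proteins, went from 1316, 858 and 1302 to 415, 500.5 and 456 (−1.32, SE 0.21, adjusted p = 0.0155). No array of either gene overlapped between genotypes, as for 40.6% of all probe sets. Those of *psaB* did not overlap either, nor those of *psaI*, where *rcb-10* was above Col-0. The arrays of *psaC* and of both nuclear genes of photosystem I overlapped. *psaB*, for the other reaction centre protein, had a log2 change of −0.42 (adjusted p = 0.0523), *psaC* 0.21 and *psaI* 0.35. The calls of *psaB* and *psaI* depended on the setting. *psaB* was called as lower with quantile normalization (limma, adjusted p = 0.0295) and not with median centring (0.171). *psaI* was called as higher with median centring (limma, adjusted p = 0.0309) and not with quantile normalization (0.321). Of the 6 fits that each left out 1 array, *psaA* kept its call in 3 and *psaJ* in 2, and *psaB* and *psaI* passed in 0.

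In photosystem II, 9 of the 15 plastid genes fell. The 4 large pigment-binding proteins were among them: *psbA* for D1, with 1958, 2303 and 3076 in Col-0 against 319, 327 and 342 in *rcb-10* (log2 change −2.87, adjusted p = 0.00423), *psbD* for D2 (−2.68), *psbB* for CP47 (−2.59) and *psbC* for CP43 (−2.56). The 3 nuclear genes of this complex were measured on the same arrays with log2 changes of 0.01 to 0.34. The small subunit genes *psbH* (−2.12), *psbZ* (−1.82), *psbK* (−1.15), *psbT* (−1.10) and *psbI* (−0.97) also fell. The genes that did not pass were *psbE* and *psbF* for cytochrome b559, *psbL*, *psbJ*, *psbM* and *psbN*, with log2 changes between −0.36 and 0.54. *psbA*, *psbB*, *psbC*, *psbD*, *psbH* and *psbZ* passed in all 6 fits that left out 1 array, *psbT* in 3, and *psbI* and *psbK* in 1 each.

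In the ATP synthase none of the 6 plastid genes passed, as *ATPC1* did not, and 2 had an unadjusted p under 0.05. *atpH*, for the subunit of the membrane ring, was 3165, 3528 and 3292 in Col-0 and 5478, 4344 and 4455 in *rcb-10* (log2 change 0.51, adjusted p = 0.0591). *atpI*, for the membrane subunit beside the ring, had a log2 change of 0.49 (adjusted p = 0.123). *atpA*, *atpB*, *atpE* and *atpF* had log2 changes from 0.09 to 0.17. The arrays of *atpB*, *atpH* and *atpI* did not overlap between genotypes, 3 of 6 genes beside 40.6% of all probe sets.

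Whether nuclear and plastid genes of a complex changed by different amounts was tested directly. For each nuclear gene the log2 ratio of every probe set to it was taken on each array and fitted with limma in the same way, which removes any single scaling factor of an array from the result. Over the 61 pairs of a plastid gene with a nuclear gene of its own complex, the plastid gene fell relative to the nuclear gene in 30, rose in none, and did not pass in 31. A plastid gene enters once for each nuclear gene of its complex, so the pairs are not independent and their count exceeds that of the genes. The share of all probe sets that passed, lower or higher, is given below for each nuclear gene. As no pair rose, the partners that fell are all that passed.

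**Figure D3:**
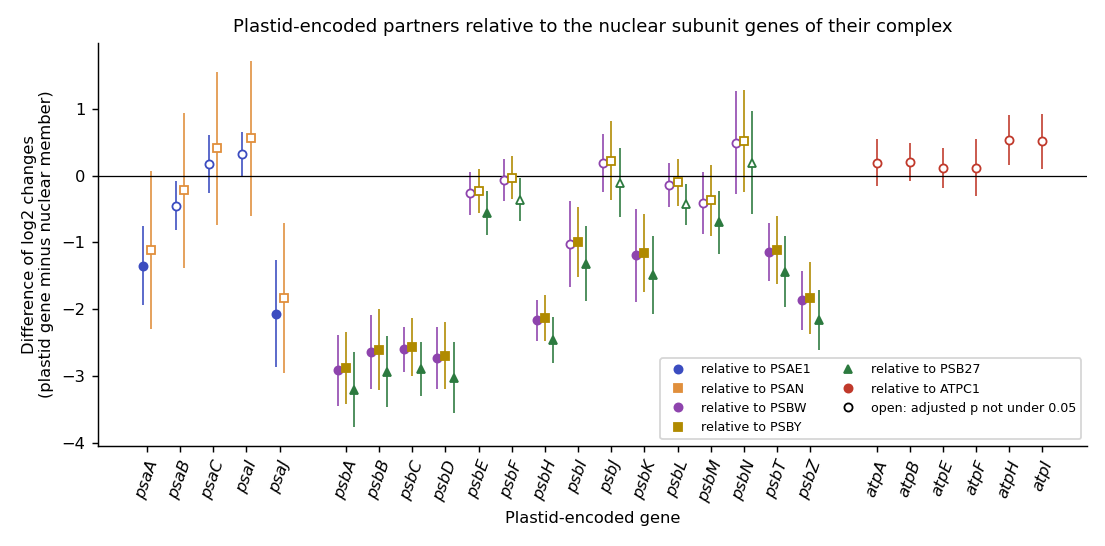
Change of each plastid-encoded gene relative to each nuclear gene of the same complex, as the difference of their log2 changes (limma on the log2 ratio, with 95% confidence intervals). Filled symbols have an adjusted p under 0.05. For *psbA*, *psbB*, *psbC*, *psbD* and *psbH* the difference lies between −3.21 and −2.13 whichever of *PSBW*, *PSBY* and *PSB27* is the reference, while the intervals for *PSAN* are the widest and no ATP synthase gene has a filled symbol.

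Relative to *PSAE1*, *psaJ* fell by 2.07 on the log2 scale (SE 0.32, adjusted p = 0.0176) and *psaA* fell by 1.35 (SE 0.24, adjusted p = 0.0239), 2 of 5 partners in a fit where 13.0% of all probe sets passed. *psaB* relative to *PSAE1* had a difference of −0.45 (95% interval −0.82 to −0.08, adjusted p = 0.105). Relative to *PSAN*, none of the 5 partners passed, in a fit where 1.32% of all probe sets did. The standard errors there were 0.553 to 0.586, and the widest spread of *PSAN* among arrays enters every ratio. The differences from *PSAN* were −1.84 for *psaJ* (adjusted p = 0.105) and −1.12 for *psaA* (adjusted p = 0.621), so for *PSAN* a difference from its plastid partners was not shown, nor its absence.

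Relative to *PSBW*, 8 of 15 plastid genes fell, where 13.3% of all probe sets passed. Relative to *PSBY* 9 fell (14.6% of probe sets), and relative to *PSB27* 11 (27.1%). The median difference over the 15 partners was −1.14, −1.11 and −1.44. *psbA* differed from *PSBW* by −2.91, from *PSBY* by −2.88 and from *PSB27* by −3.21. Of the 9 plastid genes called in the direct comparison, all fell relative to all 3 nuclear genes except *psbI*, which missed the threshold beside *PSBW* (adjusted p = 0.0567). *psbE* and *psbM*, which had not passed on their own, fell relative to *PSB27*, by 0.56 (adjusted p = 0.0300) and 0.70 (adjusted p = 0.0450), and not relative to *PSBW* or *PSBY*.

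Relative to *ATPC1*, none of the 6 plastid ATP synthase genes passed, where 14.0% of all probe sets did. The median difference was 0.20. The differences were 0.53 for *atpH* (95% interval 0.16 to 0.91, adjusted p = 0.0738) and 0.52 for *atpI* (0.11 to 0.93, adjusted p = 0.0969), and from 0.11 to 0.20 for the other 4. *atpH* and *atpI* were called as higher than *ATPC1* with quantile normalization, with the dimmest 25% of probe sets left out, with low signals raised and with a variance trend. The nuclear genes were also set against one another, which was added after the arrays of *PSB27* were seen not to overlap. Of the 15 pairs none passed. *PSB27* relative to *ATPC1* had a difference of 0.37 (95% interval 0.08 to 0.65, adjusted p = 0.0913). The same pair had the lowest adjusted p, 0.0750, in the fit of ratios to *PSB27*, and the difference of *PSB27* from *PSBY* was 0.33.

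The 6 probe sets are among the brightest on the array. A share of 0.145% of probe sets had a higher mean signal than *PSAE1*, and of 0.554% than *PSAN*, the dimmest of the 6; signal also depends on the probes, so this is no order of transcript level. The 127 probe sets at least as bright as *PSAN* had a median absolute log2 change of 0.20, beside 0.38 for all probe sets, and a median standard error of 0.12, beside 0.19. Of these 127, 26 passed (20.5%), 25 higher and 1 lower, and their median log2 change was 0.13. Among the plastid partners, *psaB*, *psbM*, *atpB* and *atpE* were also brighter than *PSAN*. Whether changes at this brightness are compressed was not tested, for the nuclear genes or for these plastid genes.

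**Figure D4:**
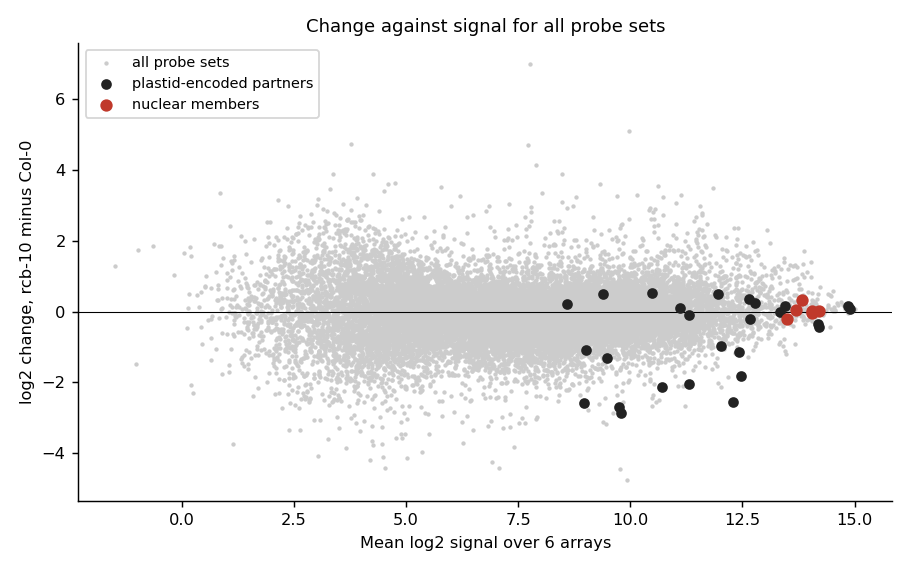
Log2 change (*rcb-10* minus Col-0) against mean log2 signal over the 6 arrays for all 22746 probe sets (grey), the 26 plastid-encoded genes (black) and the 6 nuclear genes (red). The nuclear genes lie at the bright end and between −0.20 and 0.34, where grey points spread less than at low signal.

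Some other transcripts had a pattern over the arrays like that of *PSAN*. They were found by searching for such likeness, so they are no test of whether its spread is shared. Over the 6 arrays the gene with the most similar log2 signal was *matK*, the plastid gene for an intron maturase (Pearson r = 0.996 over 6 arrays, among 8793 genes above background on all arrays), and the next AT4G39870 (r = 0.993). *matK* had 8023, 8384 and 6181 units in Col-0 and 8365, 6766 and 6546 in *rcb-10*, so the same 3 arrays were low, by less than for *PSAN*. *psbM*, picked out after its values were seen, was low on Col-0 3 and on *rcb-10* 2 and 3 as well, at 16043, 15523 and 15608 units against 18764 to 24674 on the others. In all, 143 genes had an r above 0.9 with *PSAN*. The 3′ to 5′ ratio of the actin control did not separate these arrays, at 3.42, 3.63 and 3.37 on the 3 low arrays and 3.36, 3.90 and 3.40 on the 3 high ones.

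**Figure D5:**
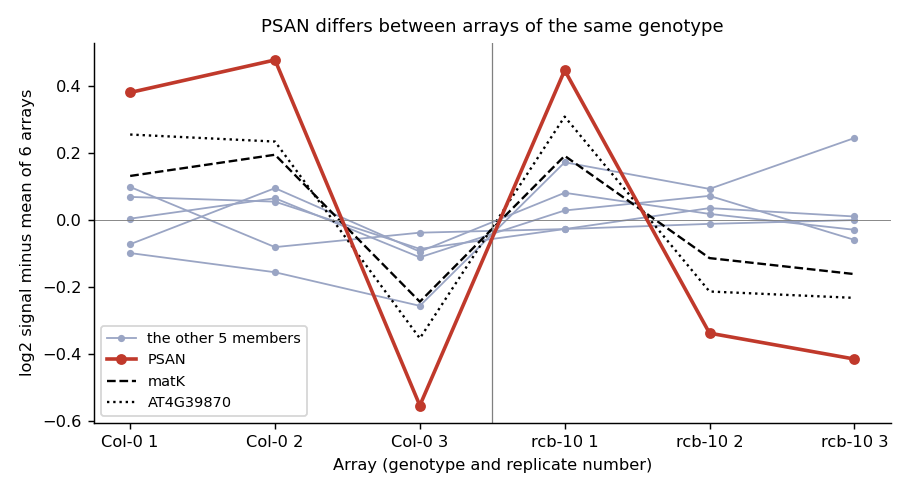
Log2 signal minus the mean of the 6 arrays, for *PSAN* (red), the other 5 nuclear genes (pale blue), and *matK* and AT4G39870, whose signals had the highest correlation with *PSAN* (r = 0.996 and 0.993). *PSAN* is low on Col-0 3 and *rcb-10* 2 and 3 and high on the other 3 arrays, in both genotypes.

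The other nuclear genes each had their own nearest patterns, with counts of genes at an r above 0.9 of 26 for *PSAE1*, 53 for *PSBW*, 35 for *PSBY*, 424 for *PSB27* and 43 for *ATPC1*. The nearest were AT1G77250 (r = 0.985) and AT2G44420 (0.970) for *PSAE1*, AT3G01340 (0.989) and AT5G13310 (0.980) for *PSBW*, and AT1G50450 (0.981) and *GR1*, for a glutathione reductase (0.976), for *PSBY*. They were AT4G29420 (0.989) and AT1G21920 (0.985) for *PSB27*, and AT4G33890 (0.988) and *UGT76E11*, for a glucosyltransferase (0.976), for *ATPC1*. Of these 10 genes, only the 2 named for *PSB27* had arrays that did not overlap between genotypes, as those of 40.6% of all probe sets did not. Of the 2, AT4G29420 rose in *rcb-10* (log2 change 0.69, limma, adjusted p = 0.0258). Both were picked for likeness to *PSB27*, whose own arrays did not overlap, so they add no separate evidence. Among the 6 genes themselves the correlations ran from −0.53 (*PSBW* with *PSBY*) to 0.76 (*PSAE1* with *PSBW*). With 6 points that share array and scaling, these values only describe the arrays.

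Other nuclear genes of photosynthesis were read from lists of 71 genes, of which 11 had a probe set of their own in the probe table. The other 60 were not analysed here, whether or not unlisted probe sets measure them. None of the 10 other subunits listed for photosystem I or of the 10 for photosystem II was among the 11. None of the 11 passed in the comparison of the genotypes, none had an unadjusted p under 0.05 in limma, and their median log2 change was −0.06. The CP29 antenna genes *LHCB4.1*, *LHCB4.2* and *LHCB4.3* had log2 changes of 0.14, 0.20 and 0.26. Their arrays did not overlap between genotypes, and they were the only ones of the 11 for which this held, 3 of 11 beside 40.6% of all probe sets. *PETM*, for a small subunit of the cytochrome b6f complex, had a log2 change of 0.09 (adjusted p = 0.828). Of 6 nuclear assembly factors, *HCF101*, which carries iron-sulphur clusters to photosystem I, had the largest change, with 1681, 1558 and 950 in Col-0 and 1118, 785 and 794 in *rcb-10*. Its arrays overlapped, and its log2 change of −0.61 (SE 0.28, adjusted p = 0.190) was not called. *PYG7*, another photosystem I factor, had −0.12.

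Markers of shoot and root were read beside these values, since all organs were pooled. Of 6 shoot markers 2 were measured, and *RCA*, for Rubisco activase, had a log2 change of 0.05 (adjusted p = 0.811) and *FAMA*, of guard cells, −0.20 (adjusted p = 0.382). Summed, they ran from 22163 to 24299 in Col-0 and from 22481 to 24962 in *rcb-10*. Of 10 root markers 2 were measured: *PYK10*, a root β-glucosidase, had −0.09 (adjusted p = 0.677), and *EXPA7*, an expansin of root hairs, fell from 217, 138 and 185 to 100.04, 69.7 and 88.3 (−1.06, adjusted p = 0.0328). *EXPA7* kept its call in 1 of the 6 fits that left out 1 array (limma, adjusted p from 0.0422 to 0.0914). Its *rcb-10* signals were not far above the background of 43.8. The summed root markers ran from 18567 to 23415 in Col-0 and from 18752 to 20095 in *rcb-10*. Each sum is nearly all the signal of 1 gene, *RCA* or *PYK10*, so the fall of *EXPA7* hardly enters it. The part of organ proportions in the values of the 6 genes was not tested.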

How the data were processed

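RNA of 6 samples was labelled with the MessageAmp Premier kit and hybridized to ATH1 arrays. The methods name GeneSpring GX and RMA, but the intensity values the authors deposited are linear signals, scaled so that the mean with 2% of probe sets trimmed at each end is 500.0 on every array. The sources used here do not say how they were made from the scans. Their log2 was compared with limma 3.58.1 (R 4.3.3) over the 22746 probe sets that are not array controls, with no filter, no fold threshold and Benjamini-Hochberg adjustment, and 6 further fits used the log2 ratio to 1 nuclear gene. With 3 arrays a genotype, the smallest p of an exact permutation test is 0.1. The steps were tested on simulated data. Names come from a probe table and TAIR10.1 symbols (13436 of 13513 single-gene probe sets matched). The members and lists were chosen with earlier results of these data known. Named were all members and plastid partners, the 2 genes of largest change in each other list or all that passed, and the 2 genes most correlated with each member. Alternatives were other scalings, filters, variance models, weights for arrays, replicate number taken as a block, the methods' t-test, and each array left out. The t-test was used without the 2-fold threshold of the methods. Python 3.11.15, pandas 2.3.3 and matplotlib 3.10.9 handled tables and plots.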

Additional observations from a re-analysis of the deposited data

How the results depend on the processing

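The count of nuclear members called was 0, and it was 1 (*PSB27*, higher) with median centring, with low signals raised to background, with robust variances that follow signal, and with the methods' t-test; it was 0 with each array left out. Of the plastid-encoded partners 11 were called, and 6 to 9 with 1 array left out (6 without *rcb-10* replicate 3, 7 without *rcb-10* replicate 2 and also without Col-0 replicate 1), and 10 to 15 under the settings other than the block, up to 3 of them higher. Of the other nuclear photosynthesis genes 0 were called, and 1 (*LHCB4.1*, higher) with low signals raised and with the methods' t-test. Of the 61 pairs 30 were called, 21 to 27 with 1 array left out and 25 to 37 otherwise. With array weights, *psaB*, *psaC* and *psaI* were called as higher than *PSAN*; the spread of *PSAN* enters all ratios of that fit and so its weights. Median centring cancels in a ratio and gave no value for the pairs.

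The replicate numbers did not pair the arrays: deviations of same-numbered arrays correlated at 0.03, −0.02 and 0.02. With the replicate number as a block, 0 members, 0 partners, 0 other nuclear genes and 10 pairs (9 beside *PSB27*, 1 beside *PSAN*) were called, and 0 of all 22746 probe sets.

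Signs changed only for genes called in neither fit. Quantile normalization gave −0.15 for *PSAE1*, −0.20 for *PSBW*, −0.19 for *PSBY*, −0.060 for *atpA*, 0.065 for *ATPC2*, −0.10 for *PETM*, −0.041 for *LHCB4.1*, −0.0082 for *LHCB4.2* and 0.026 for *PAM68*. Median centring gave 0.14 for *ATPC1*, 0.15 for *psbF*, 0.084 for *psbL*, 0.10 for *ATPC2*, 0.091 for *LPA1*, 0.089 for *LPA2*, 0.049 for *PYG7* and 0.11 for *PAM68*, and array weights −0.014 for *PETM*. With 1 array left out the log2 change ran from −0.021 to 0.068 for *PSAE1*, −0.024 to 0.066 for *PSBY*, −0.075 to 0.0029 for *ATPC1*, −0.052 to 0.013 for *psbF*, −0.042 to 0.19 for *atpF*, −0.14 to 0.0090 for *ATPC2*, −0.083 to 0.21 for *PETM*, −0.19 to 0.00086 for *LPA1*, −0.31 to 0.029 for *PYG7* and −0.24 to 0.15 for *PAM68*. The cause was not tested. The number of arrays limits the precision, most for *PSAN*.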
